A study of Mus musculus with 15 samples.

Results

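Chemokines are small secreted proteins that steer the movement of leukocytes. They act through G protein-coupled receptors, most of which bind more than 1 ligand, and the atypical receptors (Ackr genes) take chemokines up or hold them without signalling through G proteins. In adipose tissue they are known for guiding monocytes, lymphocytes, eosinophils and neutrophils into the fat pad, and for ordering lymphocytes within the lymph node that lies inside the inguinal pad. Of the 24015 rows of counts, 62 carried a chemokine or chemokine receptor symbol (Ccl, Cxcl, Xcl, Cx3cl, Ccr, Cxcr, Xcr or Cx3cr with a digit, or Ackr), and 47 of them reached 0.5 CPM (counts scaled to a common library size) in at least 3 of the 15 libraries. These 47 genes, 26 ligands, 17 signalling receptors and 4 atypical receptors, are described here, and all 47 were among the 15288 genes tested.

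The libraries are polyA RNA of inguinal white adipose tissue, the subcutaneous pad in which heat-producing beige adipocytes can appear, from C57BL/6 mice. Every group was held at thermoneutrality for 2 weeks and then injected intraperitoneally for 5 days. Young_Ctrl (2 months old, vehicle, n = 4), Young_CL (2 months old, CL, n = 4), Old_Ctrl (12 months old, vehicle, n = 3) and Old_CL (12 months old, CL, n = 4) are the 4 groups. Old_Ctrl replicate 2 is not analysed here. The labels spell CL out as cardiolipin, although these letters also commonly stand for a β-adrenergic agonist, so the compound is called CL throughout and its identity was not established. Nothing in the labels says that the libraries are from different animals; the p-values therefore reflect the spread among these samples alone, which may be technical.

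Library totals ran from 6115542 to 51577001 counts. Levels are CPM of the scaled library, listed in the order of the replicate numbers (1, 2, 3, 4; Old_Ctrl 1, 3, 4), and they are not divided by gene length, so levels of different genes are not compared. A gene was called when the quasi-likelihood test of edgeR gave a Benjamini-Hochberg adjusted p under 0.05 over all 15288 genes. The 7 adipocyte markers were high throughout, with a summed level of 7405 to 19539.9 CPM in Young_Ctrl, 23821 to 28057 in Young_CL, 16415 to 24027 in Old_Ctrl and 33501 to 44696 in Old_CL. Of these markers 5 were called higher after CL in the young pad and 6 in the aged pad, in the comparisons where chemokine genes were lower, and their part in those results was not tested. Markers of other cell types were also present, and none of the listed markers was at 0 in every library. The 10 B cell and lymph node markers summed to 1473 to 2062 CPM in Young_Ctrl, 849 to 1231 in Young_CL, 491 to 1025 in Old_Ctrl and 449.8 to 595 in Old_CL. T cell markers summed to 746 to 1362, 540.2 to 635, 521 to 608 and 179.7 to 300.3 CPM in the same order. Macrophage markers summed to 780.2 to 1114, 402 to 1164, 1588 to 2898 and 979 to 1450.2 CPM. Young_CL 4 stood apart from the other 3 libraries of its group, with the lowest macrophage sum (402 CPM against 1122 to 1164) and the lowest fibroblast and progenitor sum. Young_CL 1, 2 and 3, Old_Ctrl 3 and Old_CL 3 were the 5 libraries richest in skeletal muscle transcripts. In whole tissue, fewer cells of a type and less RNA per cell cannot be told apart.

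**Figure D1:**
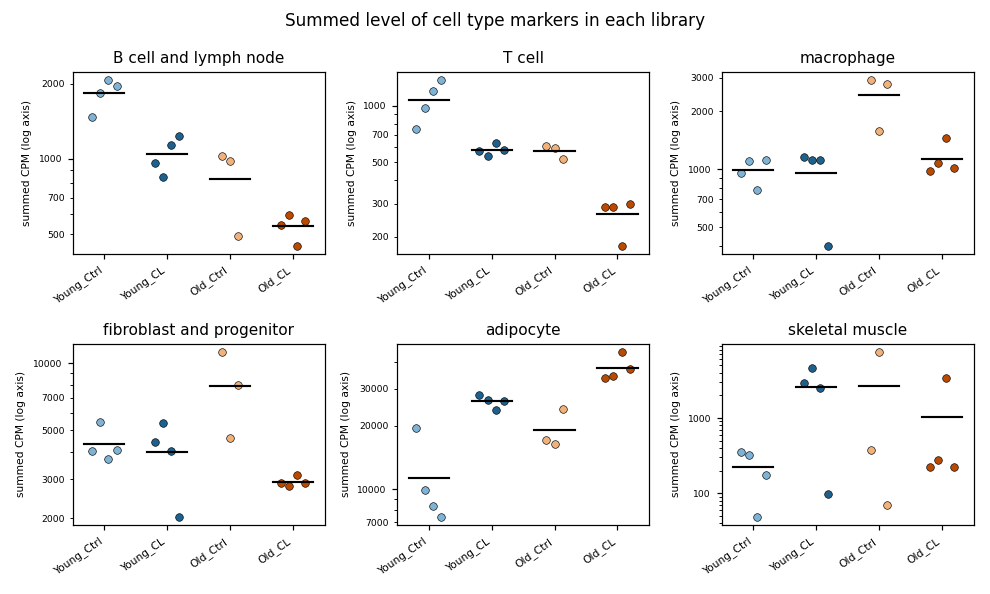
Summed CPM (log axis) of the marker genes of 6 cell types in each of the 15 libraries; points are libraries and bars group means. The B cell and T cell sums were highest in Young_Ctrl and the T cell sum lowest in Old_CL (180 to 300 CPM), while the macrophage sum was highest in Old_Ctrl (1588 to 2898 CPM).

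CL lowered many more chemokine and receptor genes than it raised, at both ages. In the young pad 3 of the 47 were higher and 17 lower, where 21.7% of all tested genes were called higher and 22.1% lower; the median log2 change of the 47 was -0.40 against -0.07 for all genes. Those higher numbered 1 without Young_Ctrl 3 and 1 without Young_CL 4 (all genes 19.1% and 21.2%). Without the 5 libraries richest in skeletal muscle transcripts, which leaves Young_CL 4 alone in its group (assumed to vary like the others), 8 were lower, 1 of them among the 17 (all genes 7.13%). In the aged pad 5 were higher and 28 lower, against 23.1% and 22.2% of all genes, and the median was -0.90 against -0.01. By role, 8 of the 17 signalling receptors and 9 of the 26 ligands were lower in the young pad, and 14 receptors and 11 ligands in the aged pad. In all, 16 genes were called lower at both ages and 3 higher at both. A further 12 called lower in the aged pad and 2 called higher there were not called in the young pad, and Cxcl1 was called lower in the young pad but not in the aged pad. The other 13 were called at neither age, among them the monocyte attractants Ccl2 and Ccl7. The vehicle and CL libraries did not overlap in 9 of the 47 with CL below vehicle in the young pad and in 27 in the aged pad (Ccl24, which was not called, among them), where 16.1% and 25% of all tested genes did not overlap in that direction. Scaling by the upper quartile moved the split of all genes in the young pad to 18.6% higher and 29.4% lower.

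**Figure D2:**
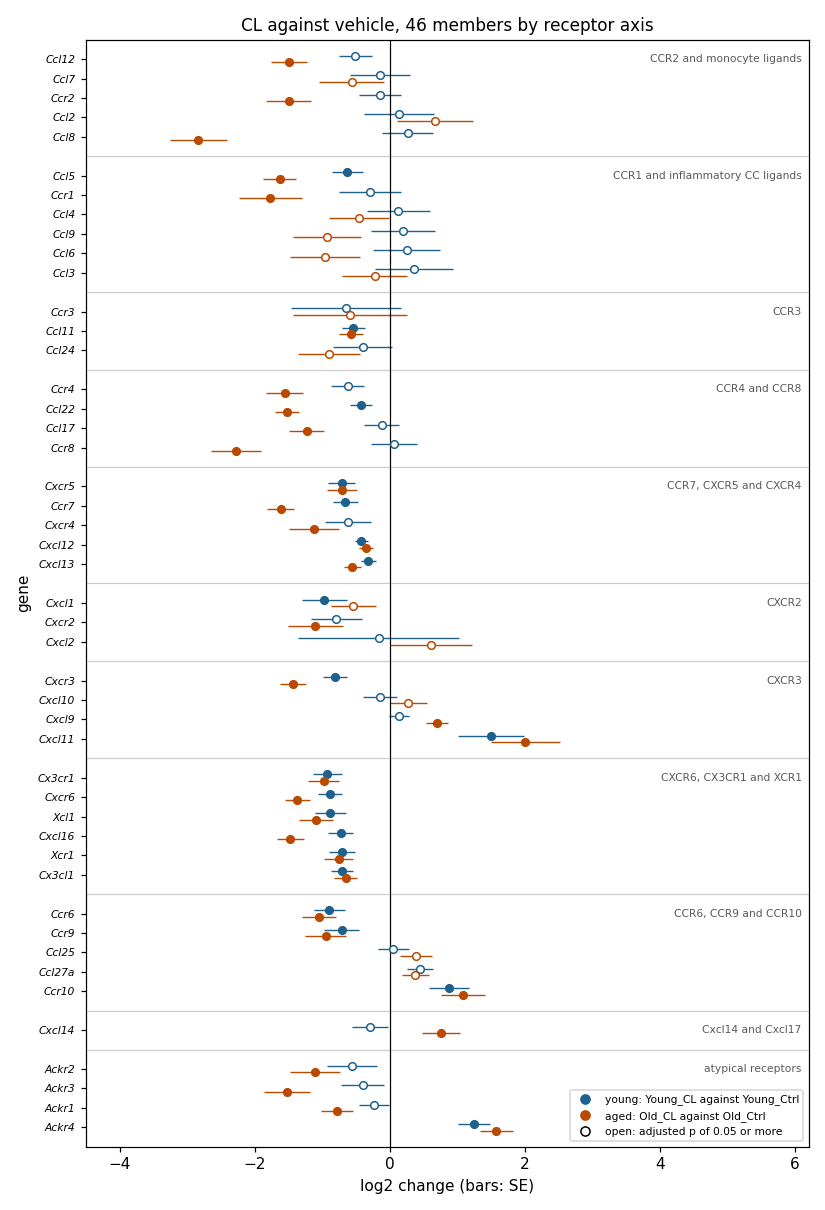
Log2 change after CL for 46 of the 47 genes, grouped by receptor, in the young (blue) and aged (orange) pad; bars are 1 SE and open symbols have an adjusted p of 0.05 or more. Filled symbols lie to the left of 0 for 17 genes in the young pad and 28 in the aged pad, and to the right for 3 and 5.

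Of the genes raised at both ages, Ackr4 had the smallest adjusted p at each. Ackr4 is the atypical receptor that takes up Ccl19, Ccl21 and Ccl25. Ackr4 stood at 13.4, 8.94, 6.37 and 5.73 CPM in Young_Ctrl and 17.4, 17.8, 17.9 and 26.3 CPM in Young_CL. Levels of Ackr4 at 12 months were 11.8, 12.4 and 17.6 CPM in Old_Ctrl and 42.1, 41.2, 49.1 and 35.5 CPM in Old_CL. The CL libraries lay above every vehicle library at both ages (log2 change 1.25, SE 0.23, edgeR adjusted p = 6.5e-04 in the young pad; log2 change 1.58, SE 0.24, edgeR adjusted p = 1.7e-04 in the aged pad). It was also higher in Old_CL than in Young_CL (log2 change 1.08, SE 0.22, edgeR adjusted p = 0.0013), with no overlap. It was higher with age under vehicle too (log2 change 0.75, SE 0.25, edgeR adjusted p = 0.035) but these groups overlapped, and the call was lost on leaving out Young_Ctrl 2, 3 or 4, or Old_Ctrl 4 (adjusted p from 0.0508 to 0.19). The ligands it takes up gave little to compare: Ccl19 and Ccl21a summed to 9 and 6 counts over all 15 libraries, and Ccl25 was called in none of the comparisons.

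Ccr10, a receptor known from skin-homing T cells and plasma cells, rose with CL from 3.55, 3.87, 1.99 and 2.28 CPM to 4.49, 4.83, 4.64 and 7.03 CPM in the young pad (log2 change 0.87, SE 0.29, edgeR adjusted p = 0.024). Levels of Ccr10 at 12 months were 1.01, 2.26 and 1.03 CPM in Old_Ctrl and 3.78, 3.51, 2.26 and 3.67 CPM in Old_CL (log2 change 1.08, SE 0.32, edgeR adjusted p = 0.013). Neither pair of groups overlapped, though Old_Ctrl 3 and Old_CL 3 both stood at 2.26 CPM to 3 digits. The young call was lost on leaving out Young_Ctrl 3 or 4, or Young_CL 4 (adjusted p from 0.071 to 0.082), and the aged call on leaving out Old_Ctrl 4 (adjusted p = 0.071); without Old_Ctrl 3 the aged change was 1.67. Its ligand Ccl27a was not called (log2 change 0.44, SE 0.20, edgeR adjusted p = 0.078 in the young pad; log2 change 0.38, SE 0.20, edgeR adjusted p = 0.13 in the aged pad), except without Young_Ctrl 2 in the young pad (adjusted p = 0.031). Ccl28, its other ligand, had 0 counts in every library.

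On the CXCR3 axis, Cxcl11 was called higher after CL at both ages, Cxcl9 in the aged pad and Cxcl10 at neither age, and the receptor Cxcr3 was called lower at both. Cxcl9, Cxcl10 and Cxcl11 are interferon-induced ligands that share the receptor Cxcr3, found mainly on effector T cells and natural killer cells. Cxcl11 had few counts: 3, 2, 4 and 7 in Young_Ctrl, 14, 22, 4 and 16 in Young_CL, 1, 10 and 5 in Old_Ctrl and 13, 10, 10 and 21 in Old_CL. Scaled for depth it was higher after CL at both ages with no overlap (log2 change 1.4997, SE 0.49, edgeR adjusted p = 0.021; log2 change 2.01, SE 0.52, edgeR adjusted p = 0.0054 in the aged pad). The young call was lost on leaving out Young_Ctrl 2 or 3, or Young_CL 2 or 4 (adjusted p from 0.055 to 0.062). Cxcl9 stood at 66.03, 38.7, 46.2 and 48.6 CPM in Young_Ctrl and 57.7, 48.7, 53.2 and 59.5 CPM in Young_CL, which overlapped (log2 change 0.14, SE 0.15, edgeR adjusted p = 0.47). It rose in the aged pad from 37.8, 33.9 and 47.9 CPM to 59.3, 58.98, 75.3 and 65.6 CPM (log2 change 0.70, SE 0.16, edgeR adjusted p = 0.0027), with every CL library above every vehicle library. The difference between these 2 responses was not called (log2 change 0.56, SE 0.22, edgeR adjusted p = 0.12). Cxcl10 was not called after CL at either age, and under vehicle it was lower in the aged pad (6.05, 3.39 and 3.93 CPM against 9.87, 6.53, 8.59 and 6.73 CPM; log2 change -0.89, SE 0.28, edgeR adjusted p = 0.030), a call lost on leaving out Young_Ctrl 3, or Old_Ctrl 3 or 4 (adjusted p from 0.075 to 0.11). Cxcr3 fell with CL at both ages. Its level was 10.3, 12.5, 11.04 and 17.9 CPM in Young_Ctrl and 7.97, 7.03, 6.63 and 7.84 CPM in Young_CL (log2 change -0.81, SE 0.18, edgeR adjusted p = 0.0022). In the aged pad it was 15.996, 12.96 and 14.9 CPM in Old_Ctrl and 4.71, 6.52, 4.203 and 6.17 CPM in Old_CL (log2 change -1.44, SE 0.19, edgeR adjusted p = 5.7e-05), and the groups did not overlap at either age. In the same comparisons the summed T cell markers stood at 746 to 1362 CPM in Young_Ctrl and 540.2 to 635 in Young_CL. The aged sums were 521 to 608 CPM in Old_Ctrl and 179.7 to 300.3 in Old_CL.

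The promoters of Cxcl9 and Cxcl10 are shown because these neighbouring genes share a receptor, and Cxcl9 was called after CL in the aged pad while Cxcl10 was not. Each is 230 bases ending 1 base before the start site, from RefSeq on GRCm38.p6 and written along the gene's strand; Cxcl9 lies at chr5:92328080-92328309 and Cxcl10 at chr5:92348890-92349119, both on the minus strand. Capitals mark the interferon-stimulated response element (ISRE), searched on both strands as GAAA, any 2 bases, then GAAA.
Cxcl9: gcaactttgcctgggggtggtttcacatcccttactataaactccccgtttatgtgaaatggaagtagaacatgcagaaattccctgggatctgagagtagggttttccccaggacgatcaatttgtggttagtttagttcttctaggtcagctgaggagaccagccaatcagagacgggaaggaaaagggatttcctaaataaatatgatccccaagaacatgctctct
Cxcl10: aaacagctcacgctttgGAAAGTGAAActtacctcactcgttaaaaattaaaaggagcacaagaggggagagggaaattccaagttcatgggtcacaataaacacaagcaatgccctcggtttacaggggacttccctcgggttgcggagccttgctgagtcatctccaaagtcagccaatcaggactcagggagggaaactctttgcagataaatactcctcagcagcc
The element lay 213 bases before the start of Cxcl10, and its letters were not in the window of Cxcl9. Over 250 bases upstream, 2.98% of 32851 RefSeq promoters held it. Of the 35 members with an entry, Cxcl10 and Cxcl14 held it.

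Cxcl14, a ligand made by epithelial and stromal cells, stood at 24.9, 31.3, 16.6 and 12.7 CPM in Young_Ctrl and 16.2, 22.7, 11.8 and 17.4 CPM in Young_CL, which overlapped (log2 change -0.29, SE 0.27, edgeR adjusted p = 0.40). Levels of Cxcl14 at 12 months were 17.1, 20.6 and 33.7 CPM in Old_Ctrl and 35.7, 42.4, 43.8 and 41.1 CPM in Old_CL (log2 change 0.76, SE 0.28, edgeR adjusted p = 0.040), without overlap. That call was lost on leaving out Old_Ctrl 1 or 3, or Old_CL 2, 3 or 4 (adjusted p from 0.067 to 0.14). Old_CL lay above Young_CL in every library (log2 change 1.24, SE 0.26, edgeR adjusted p = 0.0021), a call kept on leaving out each library in turn.

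**Figure D3:**
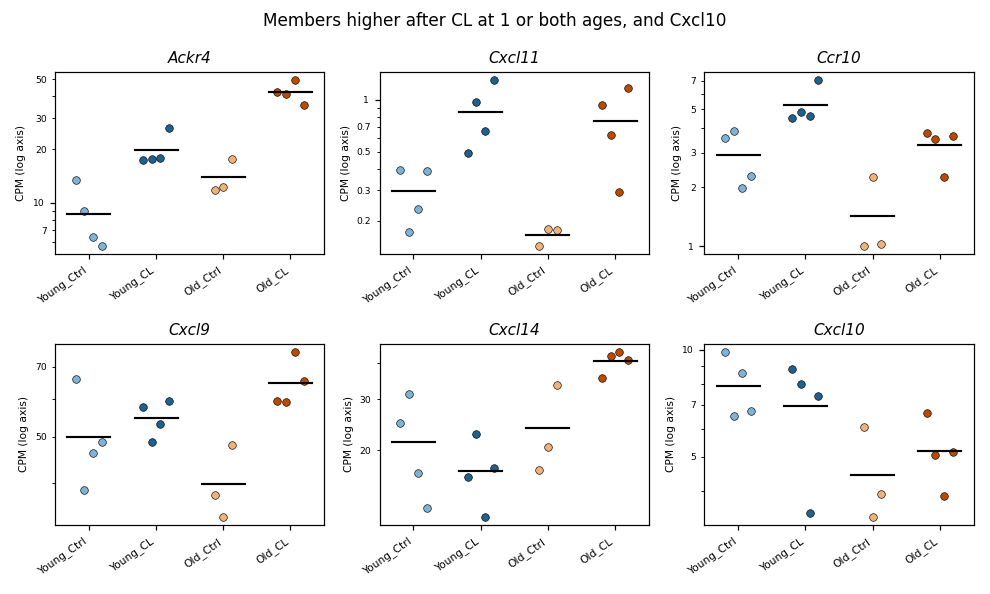
CPM (log axis) of the 5 genes higher after CL at 1 or both ages, and of Cxcl10, in each library; bars are group means. Ackr4 lay between 17.4 and 26.3 CPM in Young_CL and between 35.5 and 49.1 CPM in Old_CL, above the vehicle libraries of the same age.

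Genes of lymphoid homing were lower after CL. Ccr7 guides T cells and mature dendritic cells into the lymph node, Cxcr5 with its ligand Cxcl13 guides B cells into follicles, and Cxcr4 with its ligand Cxcl12 retains leukocytes in stroma. Ccr7 stood at 88.8, 120.00, 145 and 179 CPM in Young_Ctrl and 77.4, 85.2, 91.5 and 84.02 CPM in Young_CL, where Young_Ctrl 1 overlapped the CL libraries (log2 change -0.66, SE 0.18, edgeR adjusted p = 0.0092). Ccr7 fell in the aged pad from 105, 119 and 104 CPM to 39.7, 42.1, 24.5 and 37.1 CPM, without overlap (log2 change -1.62, SE 0.20, edgeR adjusted p = 3.3e-05). Cxcr5 fell from 60.4, 80.2, 74.7 and 68.4 CPM to 36.8, 34.04, 45.7 and 57.5 CPM in the young pad (log2 change -0.71, SE 0.20, edgeR adjusted p = 0.0099). It stood at 49.9, 38.4 and 23.7 CPM in Old_Ctrl and 24.7, 22.6, 18.3 and 24.9 CPM in Old_CL, where Old_Ctrl 4 lay among the CL libraries (log2 change -0.71, SE 0.22, edgeR adjusted p = 0.016). Without Old_Ctrl 1 the aged call of Cxcr5 was lost (adjusted p = 0.10). Cxcr5 was also lower with age under vehicle (log2 change -0.95, SE 0.22, edgeR adjusted p = 0.0072) and under CL (log2 change -0.94, SE 0.20, edgeR adjusted p = 0.0022).

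The stromal ligands were lower too. Cxcl13 fell from 83.5 ± 3.91 to 66.996 ± 10.1 CPM (mean ± SD, n = 4) in the young pad (log2 change -0.32, SE 0.12, edgeR adjusted p = 0.037), with Young_CL 4 at 80.7 CPM among the vehicle libraries. It fell from 86.9, 93.2 and 85.01 CPM to 53.9, 56.4, 74.3 and 55.8 CPM in the aged pad (log2 change -0.55, SE 0.12, edgeR adjusted p = 0.0022), without overlap. The young call was lost on leaving out Young_Ctrl 3 or 4, or Young_CL 1, 2 or 3 (adjusted p from 0.0519 to 0.12). Cxcl12 was 204, 226, 224 and 201 CPM in Young_Ctrl and 143, 159, 174 and 162 CPM in Young_CL, without overlap (log2 change -0.42, SE 0.10, edgeR adjusted p = 0.0027). Aged Cxcl12 was 255, 273 and 244 CPM in Old_Ctrl and 212, 211, 171 and 216 CPM in Old_CL, also without overlap (log2 change -0.35, SE 0.10, edgeR adjusted p = 0.013); the call was lost on leaving out Old_Ctrl 3 (adjusted p = 0.058). The 8 fibroblast and progenitor markers summed to 3691 to 5468 CPM in Young_Ctrl and 2029.7 to 5410.4 in Young_CL, and to 4597 to 11258 CPM in Old_Ctrl and 2808 to 3128 in Old_CL. Of these 1 was called higher and 1 lower with CL in the young pad, and 0 higher and 7 lower in the aged pad. The part of these markers in the results of Cxcl12, Ccl11 and Ackr3 was not tested. The Cxcl12 receptor Cxcr4 spread widely in Young_Ctrl, at 38.8, 62.9, 145 and 159 CPM, against 69.99, 59.9, 68.6 and 67.5 CPM in Young_CL, and was not called in the young pad (log2 change -0.62, SE 0.34, edgeR adjusted p = 0.16) except without Young_Ctrl 1 (log2 change -0.88, adjusted p = 0.017). Aged Cxcr4 fell from 69.7, 54.2 and 57.9 CPM to 29.9, 31.4, 17.3 and 33.03 CPM (log2 change -1.12, SE 0.37, edgeR adjusted p = 0.025), a call lost on leaving out Old_Ctrl 1, or Old_CL 3 (adjusted p from 0.065 to 0.078).

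Ccr6 and Ccr9 were lower as well. Ccr6, the receptor of Ccl20 on B cells and some T cells, stood at 15.9, 28.97, 24.2 and 21.5 CPM in Young_Ctrl and 11.6, 9.13, 12.9 and 15.7 CPM in Young_CL. Aged Ccr6 stood at 18.4, 20.8 and 10.1 CPM in Old_Ctrl and 8.84, 8.52, 6.05 and 8.56 CPM in Old_CL. It fell at both ages without overlap (log2 change -0.90, SE 0.23, edgeR adjusted p = 0.0061; log2 change -1.05, SE 0.25, edgeR adjusted p = 0.0035 in the aged pad). Ccr9, the receptor of Ccl25 on thymocytes and gut-homing lymphocytes, stood at 11.05, 12.1, 20.7 and 24.9 CPM in Young_Ctrl and 11.03, 10.01, 9.94 and 11.4 CPM in Young_CL (log2 change -0.71, SE 0.26, edgeR adjusted p = 0.036). In the aged pad Ccr9 stood at 7.06, 5.75 and 3.54 CPM in Old_Ctrl and 3.21, 3.51, 1.85 and 2.61 CPM in Old_CL (log2 change -0.95, SE 0.30, edgeR adjusted p = 0.019). The young call was lost on leaving out Young_Ctrl 3 or 4, or Young_CL 1, 2 or 3 (adjusted p from 0.059 to 0.15), and the aged call on leaving out Old_Ctrl 1 or 3, or Old_CL 3 (adjusted p from 0.063 to 0.080). It was also lower with age, under vehicle (log2 change -1.72, SE 0.30, edgeR adjusted p = 0.0015) and under CL (log2 change -1.95, SE 0.28, edgeR adjusted p = 1.1e-04), and no aged library reached the young libraries of the same treatment.

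Ligand and receptor fell together on the CXCR6, CX3CR1 and XCR1 axes. Cxcl16 is a membrane-bound ligand of macrophages and dendritic cells, and Cxcr6 is its receptor on T cells and natural killer T cells. Cxcl16 stood at 65.02 ± 25.3 CPM (mean ± SD, n = 4) in Young_Ctrl and 37.6, 40.5, 35.3 and 44.3 CPM in Young_CL, where Young_Ctrl 1 (40.6 CPM) overlapped (log2 change -0.73, SE 0.19, edgeR adjusted p = 0.0058). Without Young_Ctrl 4 its change was -0.44 and remained past the threshold. Aged Cxcl16 fell from 72.3, 76.6 and 77.7 CPM to 27.7, 28.2, 25.5 and 27.7 CPM (log2 change -1.47, SE 0.20, edgeR adjusted p = 7.0e-05), without overlap. Cxcr6 fell at both ages without overlap, from 19.8 ± 5.48 to 10.8 ± 0.367 CPM (mean ± SD, n = 4 and 4) in the young pad (log2 change -0.88, SE 0.18, edgeR adjusted p = 0.0010). In the aged pad it fell from 18.2 ± 4.89 to 7.14 ± 0.248 CPM (mean ± SD, n = 3 and 4; log2 change -1.37, SE 0.19, edgeR adjusted p = 7.0e-05).

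Cx3cl1 (fractalkine), a tethered ligand of endothelium and other cells, stood at 7.89, 9.03, 11.2 and 11.2 CPM in Young_Ctrl and 4.42, 5.84, 7.62 and 6.95 CPM in Young_CL. Aged Cx3cl1 stood at 11.1, 11.3 and 12.5 CPM in Old_Ctrl and 7.703, 7.58, 7.17 and 7.23 CPM in Old_CL, and it fell at both ages without overlap (log2 change -0.71, SE 0.16, edgeR adjusted p = 0.0024; log2 change -0.65, SE 0.16, edgeR adjusted p = 0.0047 in the aged pad). Its receptor Cx3cr1, of monocytes and macrophages, stood at 6.84, 10.8, 9.93 and 12.9 CPM in Young_Ctrl and 5.197, 4.87, 6.79 and 5.01 CPM in Young_CL. Aged Cx3cr1 stood at 10.1, 7.64 and 5.41 CPM in Old_Ctrl and 4.42, 3.38, 4.26 and 3.17 CPM in Old_CL. It too fell at both ages without overlap (log2 change -0.92, SE 0.21, edgeR adjusted p = 0.0027; log2 change -0.98, SE 0.23, edgeR adjusted p = 0.0028). Their interaction log2 changes were 0.055 and -0.055, with SE 0.2297 and 0.3102, and neither was called. Xcl1, made by T and natural killer cells, and Xcr1, its receptor on cross-presenting dendritic cells, were each lower after CL at both ages. Xcl1 stood at 2.24, 2.92, 3.27 and 3.28 CPM in Young_Ctrl, 1.33, 1.45, 1.99 and 1.86 CPM in Young_CL, 2.31, 1.69 and 1.42 CPM in Old_Ctrl and 0.998, 0.9402, 0.735 and 0.612 CPM in Old_CL. Xcr1 stood at 6.45, 7.74, 10.1 and 10.4 CPM in Young_Ctrl, 4.99, 4.61, 4.97 and 6.87 CPM in Young_CL, 5.62, 5.06 and 3.54 CPM in Old_Ctrl and 3.28, 2.63, 2.29 and 2.89 CPM in Old_CL. Both were also lower with age under vehicle (Xcl1: log2 change -0.78, SE 0.24, edgeR adjusted p = 0.028; Xcr1: log2 change -0.91, SE 0.21, edgeR adjusted p = 0.0076), and in the CL groups the aged libraries lay wholly below the young ones for both. The aged CL call of Xcr1 was lost on leaving out Old_Ctrl 3 (adjusted p = 0.0528). The age call of Xcl1 under vehicle was lost on leaving out Young_Ctrl 3 or 4, or Old_Ctrl 3 or 4 (adjusted p from 0.069 to 0.13), and that of Xcr1 on leaving out Old_Ctrl 4 (adjusted p = 0.0543).

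Ccl5, a ligand of Ccr1 and Ccr3 that T and natural killer cells make, stood at 72.6, 147, 160.3 and 216 CPM in Young_Ctrl and 93.7, 103, 97.4 and 91.8 CPM in Young_CL (log2 change -0.63, SE 0.23, edgeR adjusted p = 0.036). Young_Ctrl 1 lay below the CL libraries, and the call was lost on leaving out Young_Ctrl 2, 3 or 4, or Young_CL 1, 2, 3 or 4 (adjusted p from 0.0542 to 0.15). Aged Ccl5 fell from 166, 207 and 169 CPM to 66.5, 63.1, 44.5 and 59.4 CPM (log2 change -1.63, SE 0.25, edgeR adjusted p = 1.5e-04), without overlap.

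After CL the group means of the B cell and T cell marker sums were lower at both ages, like these lymphoid genes. In the aged pad, though, the B cell sum of Old_Ctrl 4 (491 CPM) lay within the Old_CL range (449.8 to 595). With age under vehicle both sums were also lower. The T cell sum was 521 to 608 CPM against 746 to 1362, with 9 of 10 markers called lower. The B cell sum was 491 to 1025 CPM against 1473 to 2062, with 10 of 10 called lower. Cxcr5, Ccr9, Xcl1 and Xcr1 were called lower there, while Ccr7, Cxcr3, Cxcr6, Cxcl16 and Ccl5 were among those not called. When the B cell and lymph node score was a covariate, 0 of the 47 were called lower in the young pad, against 17 without it, and the share of all genes called lower went from 22.1% to 2.05%. In the aged pad 17 were called lower, 16 of them among the 28, against 13% of all genes. With a T cell score as covariate, an alternative added after seeing the data, 0 were called lower at either age, where 2.17% of all genes in the young pad and 0.641% in the aged pad were. These counts of 0 are near the share over all genes and describe the members no further. Both marker sums differed between the groups themselves, as given above. With the macrophage score, also added after seeing the data, 18 of the 28 remained lower in the aged pad, against 9.59% of all genes.

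Of Ccr2 and the monocyte ligands, among which Ccl8 is counted, 3 of 5 were called lower with CL in the aged pad (Ccl12, Ccl8 and Ccr2), against 0 in the young pad. On the CCR4 and CCR8 axis 4 of 4 were called lower in the aged pad, against 1 in the young pad. Of all tested genes, 22.2% were called lower in the aged pad and 22.1% in the young pad. The 1 of 4 in the young pad is near that share. The response to CL differed between the ages by the interaction test for 4 of the 47, Ccl8, Ccr8, Ccl22 and Ccr7, each with a lower log2 change in the aged pad. The interaction was called in the other direction for 0 of 47 (2 at an unadjusted p under 0.05 in edgeR; 0 in DESeq2), where 3.77% and 3.31% of all tested genes were called in these directions. Without Young_CL 4 the lower interactions numbered 11, and without Young_Ctrl 4 7, each holding these 4 (all genes 7.57% and 3.79%). Without Young_Ctrl 4, 1 was higher (all genes 3.97%). Ccl8, which attracts monocytes and other leukocytes and in mice binds Ccr8, stood at 23.5, 36.1, 31.8 and 61.4 CPM in Young_Ctrl and 49.1, 66.5, 49.05 and 20.2 CPM in Young_CL, which overlapped (log2 change 0.27, SE 0.38, edgeR adjusted p = 0.59). Ccl8 fell in the aged pad from 154, 60.97 and 63.6 CPM to 11.6, 12.5, 13.9 and 13.2 CPM (log2 change -2.83, SE 0.42, edgeR adjusted p = 1.9e-04). The aged CL libraries lay below all other 11 libraries. The interaction was log2 change -3.10, SE 0.56, edgeR adjusted p = 0.0081. Ccr8, a receptor of some regulatory and type 2 helper T cells, stood at 1.18, 1.203, 1.58 and 2.003 CPM in Young_Ctrl and 1.299, 1.05, 2.65 and 1.86 CPM in Young_CL (log2 change 0.063, SE 0.34, edgeR adjusted p = 0.90). It fell from 1.297, 2.65 and 1.84 CPM to 0.571, 0.501, 0.235 and 0.445 CPM in the aged pad (log2 change -2.28, SE 0.37, edgeR adjusted p = 2.4e-04; interaction log2 change -2.34, SE 0.50, edgeR adjusted p = 0.014). Each Old_CL library held 8 counts of Ccr8.

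Ccl22, made by dendritic cells and macrophages to attract T cells with Ccr4, was 75.1, 90.3, 109 and 107 CPM in Young_Ctrl and 66.9, 61.7, 79.9 and 77.1 CPM in Young_CL (log2 change -0.43, SE 0.16, edgeR adjusted p = 0.0457). The young call was lost on leaving out Young_Ctrl 2, 3 or 4, or Young_CL 1 or 2 (adjusted p from 0.059 to 0.13). It fell in the aged pad from 59.7, 103 and 73.97 CPM to 28.5, 30.02, 21.7 and 29.9 CPM (log2 change -1.53, SE 0.18, edgeR adjusted p = 2.2e-05; interaction log2 change -1.10, SE 0.24, edgeR adjusted p = 0.015). The Ccr7 interaction (log2 change -0.96, SE 0.27, edgeR adjusted p = 0.044) was lost on leaving out Young_Ctrl 2 or 3, or Young_CL 1, 2 or 3, or Old_Ctrl 1, 3 or 4, or Old_CL 1, 2, 3 or 4 (adjusted p from 0.0523 to 0.083), which is 12 of the 15 libraries. The interactions of Ccl8, Ccr8 and Ccl22 were kept in all 15, and all 4 were lost without the 5 libraries richest in muscle and when Old_CL 1, 2 and 4 were summed into 1 sample (adjusted p = 0.064 to 0.10 in the latter). Those 3 libraries resembled each other more than other replicates did and were kept as 3 samples. They differed beyond sampling noise (chi-square per degree of freedom 2.65 to 4.90), which does not show whether they are from separate animals.

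Ccr4 and Ccl17, the partner receptor and the other ligand of that axis, were called lower with CL in the aged pad and not in the young pad. Ccr4 stood at 3.29, 5.93, 5.26 and 6.62 CPM in Young_Ctrl and 3.301, 2.24, 4.14 and 4.52 CPM in Young_CL (log2 change -0.62, SE 0.25, edgeR adjusted p = 0.051), just short of the threshold. It passed on leaving out Young_Ctrl 1, or Young_CL 3 or 4 (adjusted p from 0.012 to 0.041). Ccr4 fell in the aged pad from 3.03, 4.27 and 3.36 CPM to 1.64, 1.07, 1.06 and 1.22 CPM (log2 change -1.56, SE 0.28, edgeR adjusted p = 4.4e-04). Ccl17 was 1.32, 1.38, 1.87 and 1.67 CPM in Young_Ctrl and 1.47, 1.23, 2.15 and 1.21 CPM in Young_CL (log2 change -0.12, SE 0.26, edgeR adjusted p = 0.73). Aged Ccl17 fell from 2.02, 3.42 and 3.01 CPM to 1.57, 1.19, 0.852 and 1.45 CPM (log2 change -1.23, SE 0.26, edgeR adjusted p = 0.0015), without overlap. The interactions of Ccr4 and Ccl17 were not called (edgeR adjusted p = 0.13 and 0.082).

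On the CCR2 axis, Ccr2, the receptor that brings monocytes from the blood, fell in the aged pad from 77.5, 38.3 and 33.5 CPM to 17.97, 15.2, 19.7 and 15.9 CPM without overlap (log2 change -1.4999, SE 0.33, edgeR adjusted p = 0.0026). In the young pad it stood at 41.04, 37.5, 39.3 and 57.2 CPM in Young_Ctrl and 57.3, 33.2, 49.4 and 18.8 CPM in Young_CL (log2 change -0.15, SE 0.31, edgeR adjusted p = 0.72), with Young_CL 4 lowest. Its ligand Ccl12 fell in the aged pad from 4.32, 2.87 and 2.62 CPM to 1.07, 1.57, 1.09 and 0.778 CPM (log2 change -1.49, SE 0.27, edgeR adjusted p = 5.0e-04). In the young pad Ccl12 stood at 4.47, 4.47, 3.86 and 3.62 CPM in Young_Ctrl and 2.84, 2.15, 4.31 and 2.59 CPM in Young_CL, missed the threshold (log2 change -0.51, SE 0.24, edgeR adjusted p = 0.10) and passed it without Young_CL 3 (adjusted p = 0.023). The ligands Ccl2 and Ccl7 were not called in any comparison. Ccl2 was 4.21, 4.38, 6.25 and 6.23 CPM in Young_Ctrl, 9.52, 5.84, 5.14 and 2.26 CPM in Young_CL, 8.36, 3.07 and 3.68 CPM in Old_Ctrl and 3.99, 4.95, 16.4 and 3.503 CPM in Old_CL, with Old_CL 3 highest. Ccl7 ran from 1.37 to 10.4 CPM over the 15 libraries. Macrophage markers summed to 1588 to 2898 CPM in Old_Ctrl and 979 to 1450.2 in Old_CL, with 6 of 10 called lower and 0 higher. With CL in the young pad 0 of 10 were called in either direction. Whether these markers account for the results of this axis was not tested. The interaction of Ccr2 passed only without Young_CL 4 (log2 change -1.58, adjusted p = 0.013; edgeR adjusted p = 0.085 with it).

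**Figure D4:**
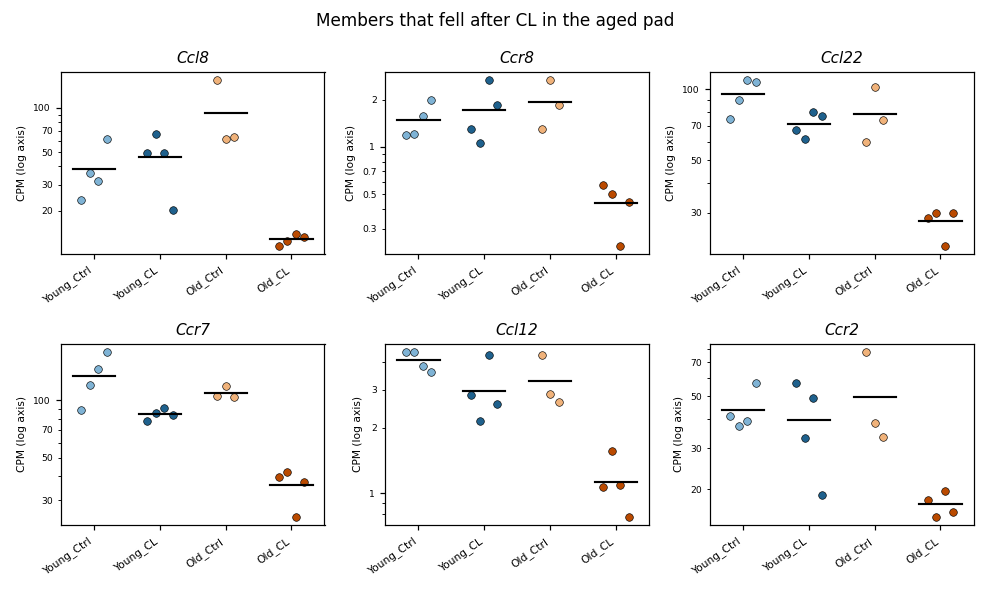
CPM (log axis) in each library of the 4 genes with a called age by CL interaction (Ccl8, Ccr8, Ccl22, Ccr7) and of Ccl12 and Ccr2; bars are group means. Every Old_CL library lay below every Old_Ctrl library in each panel, for Ccl8 at 11.6 to 13.9 CPM against 61.0 to 154 CPM.

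Age under vehicle raised 8 of the 47 (17%) and lowered 5 (10.6%). These shares are near the 15.1% and 12.2% of all tested genes called higher and lower. The median log2 change was 0.15 against 0.03 for all genes. These counts moved with single libraries: without Old_Ctrl 4 they were 1 and 2 (all genes 7.04% and 4.24%). Those higher numbered 3, 2 and 5 without Young_Ctrl 2, 3 and 4 (all genes 14.1%, 9.12% and 9.83%), and 4 without Old_Ctrl 1 (12.5%). Without Young_Ctrl 1, 8 were lower, near the 16.4% of all genes called lower in that fit. With all libraries, those higher were the myeloid ligands Ccl9, Ccl6, Ccl3 and Ccl8, the eosinophil attractant Ccl11, the T cell attractant Ccl17, and the atypical receptors Ackr2 and Ackr4. Those lower were Cxcl10, Xcl1, Xcr1, Cxcr5 and Ccr9. Ccl9, a macrophage product that binds Ccr1, stood at 56.96, 52.7, 50.1 and 65.3 CPM in Young_Ctrl and 238, 128 and 369.8 CPM in Old_Ctrl (log2 change 2.12, SE 0.52, edgeR adjusted p = 0.011). Ccl6, another Ccr1 ligand of macrophages, stood at 111, 96.3, 82.5 and 131 CPM in Young_Ctrl and 398, 223 and 444 CPM in Old_Ctrl (log2 change 1.75, SE 0.53, edgeR adjusted p = 0.027). Neither pair of groups overlapped. The call of Ccl9 was lost on leaving out Old_Ctrl 4 (adjusted p = 0.062), and that of Ccl6 on leaving out Young_Ctrl 2, 3 or 4, or Old_Ctrl 1 or 4 (adjusted p from 0.0519 to 0.10). Ccl3, a macrophage ligand of Ccr1, had 2 to 12 counts in Young_Ctrl and 16 to 39 in Old_Ctrl (log2 change 1.63, SE 0.56, edgeR adjusted p = 0.042), and its call was lost on leaving out Young_Ctrl 1, 2 or 3, or Old_Ctrl 1 or 4 (adjusted p from 0.0541 to 0.17). The macrophage marker sum was higher in the same comparison (1588 to 2898 CPM in Old_Ctrl against 780.2 to 1114 in Young_Ctrl). With the macrophage score as a covariate, 0 of the 47 were called in either direction for age under vehicle, where 1.98% of all genes were called higher and 0.576% lower, so this count is near that of all genes.

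Ccr1, a receptor of these ligands, was not called with age under vehicle. Ccr1 stood at 5.66, 7.39, 3.97 and 6.57 CPM in Young_Ctrl and 16.4, 10.8 and 15.4 CPM in Old_Ctrl, without overlap (log2 change 1.26, SE 0.47, edgeR adjusted p = 0.058). After CL in the aged pad, Ccr1 fell from the levels above to 3.21, 2.82, 6.44 and 3.67 CPM (log2 change -1.77, SE 0.47, edgeR adjusted p = 0.0069). Ccl6 and Ccl9 were not called there (log2 change -0.96, SE 0.52, edgeR adjusted p = 0.15; log2 change -0.93, SE 0.50, edgeR adjusted p = 0.15), with Old_CL 3 highest at 293 and 220 CPM. In the young pad Ccl6 was 212, 129.6, 136 and 21.6 CPM and Ccl9 103, 67.5, 70.9 and 14.9 CPM in Young_CL. Young_CL 4 was the lowest of its group for both, as it was for the macrophage markers. Without that library neither gene was called in the young pad, and the interaction of Ccl6 passed (log2 change -1.56, adjusted p = 0.023), as did that of Ccr1 (log2 change -1.82, adjusted p = 0.0098). Ccl4, a ligand made by activated macrophages and T cells, was called in no comparison, at 0.357 to 2.31 CPM.

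The promoters of Ccl6 and Ccl9 are shown because these neighbouring genes were both higher with age under vehicle. They lie at chr11:83593088-83593317 and chr11:83578637-83578866 (RefSeq, GRCm38.p6, minus strand), each 230 bases ending 1 base before the start site. Capitals mark the NF-kB motif, searched on both strands as GGG, any 2 bases, then TTTCC.
Ccl6: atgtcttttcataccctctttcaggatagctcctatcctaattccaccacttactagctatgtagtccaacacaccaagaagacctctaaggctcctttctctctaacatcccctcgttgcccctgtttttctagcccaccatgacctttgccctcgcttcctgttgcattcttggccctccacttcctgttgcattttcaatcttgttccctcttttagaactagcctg
Ccl9: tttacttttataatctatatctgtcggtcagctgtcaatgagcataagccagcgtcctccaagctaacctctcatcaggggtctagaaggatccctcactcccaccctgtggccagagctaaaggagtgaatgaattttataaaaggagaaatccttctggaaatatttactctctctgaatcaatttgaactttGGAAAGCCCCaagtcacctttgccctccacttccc
The motif lay 35 bases before the start of Ccl9, on the other strand, and its letters were not in the window of Ccl6. In the 250 bases upstream, 1.41% of 32851 promoters held it, and of the 35 members with an entry Ccl9, Ccr3, Cxcl1 and Cxcl2 did.

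Ccl11 (eotaxin-1), which recruits eosinophils through Ccr3, changed with CL and with age. It stood at 54.6, 44.5, 40.7 and 44.1 CPM in Young_Ctrl, 35.1, 37.2, 35.96 and 17.8 CPM in Young_CL, 67.01, 74.3 and 74.6 CPM in Old_Ctrl and 48.1, 46.8, 46.8 and 51.8 CPM in Old_CL. It fell with CL at both ages (log2 change -0.54, SE 0.17, edgeR adjusted p = 0.018; log2 change -0.57, SE 0.18, edgeR adjusted p = 0.016 in the aged pad), was higher with age under vehicle (log2 change 0.65, SE 0.18, edgeR adjusted p = 0.016) and under CL (log2 change 0.62, SE 0.17, edgeR adjusted p = 0.0094), and no pair of these groups overlapped. In the aged CL comparison the fibroblast and progenitor sum was 4597 to 11258 CPM in Old_Ctrl and 2808 to 3128 in Old_CL. Without Young_CL 4 the young CL change was -0.34 and still called. The age call under vehicle was lost on leaving out Young_Ctrl 3, or Old_Ctrl 4 (adjusted p from 0.0512 to 0.062). The marker sum of eosinophils and mast cells was 43.3 to 56.5 CPM in Young_Ctrl and 125 to 194 CPM in Old_Ctrl, and its part was not tested. Most of that rise lay in the mast cell genes Mcpt4, Cma1 and Cpa3. Mcpt4, for example, stood at 10.5 to 17.1 CPM in Young_Ctrl and 43.0 to 72.2 CPM in Old_Ctrl. The eosinophil genes Siglec5, Epx and Prg2 were under 1 CPM in every library, so the sum says little about eosinophils. Ccr3 itself had 0 to 25 counts per library and was called in no comparison, as was the other eotaxin Ccl24.

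Ackr1, Ackr2 and Ackr3 were called lower with CL in the aged pad, unlike Ackr4. Ackr3, which takes up Cxcl12, stood at 59.2, 66.9, 54.9 and 62.7 CPM in Young_Ctrl and 53.4, 59.5, 60.2 and 12.04 CPM in Young_CL (log2 change -0.40, SE 0.32, edgeR adjusted p = 0.33). Ackr3 fell in the aged pad from 101, 101 and 94.3 CPM to 36.4, 34.7, 32.4 and 34.97 CPM (log2 change -1.52, SE 0.34, edgeR adjusted p = 0.0027), without overlap. Ackr2, which takes up inflammatory CC ligands, stood at 10.8, 8.34, 7.59 and 9.79 CPM in Young_Ctrl, 7.06, 9.05, 7.29 and 0.969 CPM in Young_CL, 17.004, 20.6 and 20.2 CPM in Old_Ctrl and 9.41, 9.09, 9.46 and 8.01 CPM in Old_CL. It was higher with age under vehicle (log2 change 1.09, SE 0.38, edgeR adjusted p = 0.044) and fell with CL in the aged pad (log2 change -1.11, SE 0.37, edgeR adjusted p = 0.025). The age call of Ackr2 was lost on leaving out Young_Ctrl 2, 3 or 4, or Old_Ctrl 1, 3 or 4 (adjusted p from 0.062 to 0.12), and the aged CL call on leaving out Old_Ctrl 3 or 4, or Old_CL 2 or 4 (adjusted p from 0.0502 to 0.061). Ackr1, which binds many ligands on venular endothelium and erythroid cells, stood at 11.8, 13.4, 12.1 and 15.03 CPM in Young_Ctrl and 10.96, 12.96, 15.7 and 5.49 CPM in Young_CL (log2 change -0.24, SE 0.22, edgeR adjusted p = 0.41). Aged Ackr1 fell from 17.004, 17.6 and 13.7 CPM to 9.06, 9.78, 7.82 and 10.7 CPM (log2 change -0.79, SE 0.23, edgeR adjusted p = 0.013), a call lost on leaving out Old_Ctrl 3 (adjusted p = 0.0525). In that comparison the lymphatic endothelium markers summed to 120.5 to 219 CPM in Old_Ctrl and 70.9 to 75.9 in Old_CL. Of these 4 markers 2 were called lower and 1 higher. The fibroblast and progenitor markers had the sums given with Cxcl12, with 7 of 8 called lower. Blood endothelium markers went the other way, at 537 to 648 CPM in Old_Ctrl and 716 to 826 in Old_CL. Of these 2 of 7 were called higher and 0 lower. The part of these cell types was not tested. Young_CL 4 was the lowest library of its group for Ackr1, Ackr2 and Ackr3, at 5.49, 0.969 and 12.0 CPM. The lymphatic endothelium marker sum of that library was 28.4 CPM against 86.0 to 96.6 in the rest of its group. Its markers were split: Lyve1 (12.4 CPM) and Pdpn (4.44 CPM) were the lowest of the group, while Prox1 (1.13 CPM) and Flt4 (10.4 CPM) were the highest. Without Young_CL 4 the interaction passed for Ackr1 (log2 change -0.77, adjusted p = 0.028), Ackr2 (-0.90, adjusted p = 0.0097) and Ackr3 (-1.44, adjusted p = 2.5e-05). With it the edgeR adjusted p values were 0.29, 0.53 and 0.15.

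**Figure D5:**
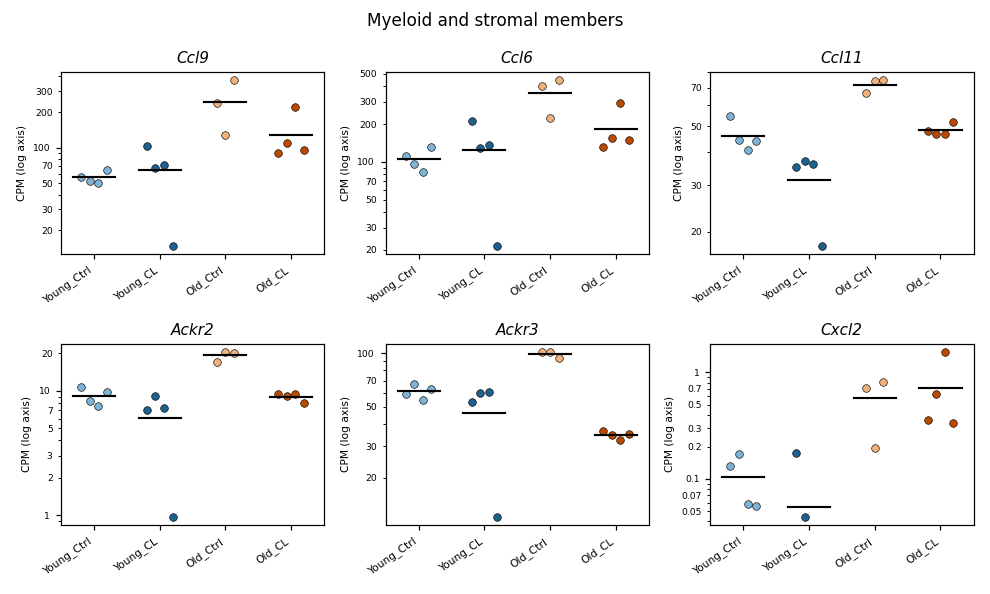
CPM (log axis) of Ccl9, Ccl6, Ccl11, Ackr2, Ackr3 and Cxcl2 in each library; bars are group means, and Young_CL 3 and 4 are not drawn for Cxcl2 because they held 0 counts. Young_CL 4 is the lowest point of its group in the first 5 panels, and Old_Ctrl is the highest group in those panels.

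Under CL, age raised 5 of the 47 and lowered 16, where 20.5% and 19.4% of all tested genes were called; the median log2 change was -0.26 against -0.01. Those raised were Ackr4, Ccl11, Cxcl14, Cxcl12 (log2 change 0.34, SE 0.10, edgeR adjusted p = 0.011) and Cxcl2. Those lowered held 4 genes that were also lower with age under vehicle (Cxcr5, Xcl1, Xcr1 and Ccr9) and 12 others. Ccl8 went in opposite directions in the 2 age comparisons, higher under vehicle (log2 change 1.25, SE 0.40, edgeR adjusted p = 0.034) and lower under CL (log2 change -1.85, SE 0.39, edgeR adjusted p = 0.0024). The former call was lost on leaving out Young_Ctrl 1, 2 or 3, or Old_Ctrl 1 (adjusted p from 0.064 to 0.18). The remaining 11 were Ccl12, Ccr2, Ccl5, Ccl22, Ccr4, Ccr8, Ccr7, Cxcr4, Cxcl16, Cxcr6 and Ccr6, with log2 changes of -0.54 (Cxcl16) to -1.93 (Ccr8). Some of these calls were lost, Cxcl16 on leaving out Young_CL 1, 2 or 4, or Old_CL 1, 2, 3 or 4 (adjusted p from 0.055 to 0.080), Ccl5 on leaving out Old_CL 3 (adjusted p = 0.063) and Ccr6 on leaving out Young_CL 1, 3 or 4, or Old_CL 1, 2, 3 or 4 (adjusted p from 0.063 to 0.14). The Young_CL and Old_CL libraries did not overlap for 18 genes lower in Old_CL, where 21.4% of all tested genes did not. The T cell marker sum was 540.2 to 635 CPM in Young_CL and 179.7 to 300.3 in Old_CL. The age comparisons and the CL comparisons share these libraries.

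The CXCR2 axis, which recruits neutrophils, gave few counts for its ligands. Cxcl2 had 1, 2, 1 and 1 counts in Young_Ctrl, 5, 1, 0 and 0 in Young_CL, 5, 11 and 23 in Old_Ctrl and 5, 10, 53 and 6 in Old_CL. It was higher in Old_CL than in Young_CL (log2 change 3.15, SE 0.77, edgeR adjusted p = 0.0048), where 3 of the 4 Young_CL libraries were under 3 counts, so that the size of the change depends on the handling of low counts. Under vehicle the age difference was not called (log2 change 2.37, SE 0.89, edgeR adjusted p = 0.058) except without Old_Ctrl 3 (adjusted p = 0.020). Cxcl1 stood at 0.526, 1.55, 1.46 and 1.002 CPM in Young_Ctrl and 0.527, 0.615, 0.497 and 0.727 CPM in Young_CL (log2 change -0.97, SE 0.33, edgeR adjusted p = 0.026), which overlapped, and the call was lost on leaving out Young_Ctrl 2 or 3, or Young_CL 1 or 2 (adjusted p from 0.056 to 0.090). Cxcr2 stood at 9.799, 4.41 and 2.69 CPM in Old_Ctrl and 2.28, 2.88, 2.32 and 2.34 CPM in Old_CL (log2 change -1.10, SE 0.41, edgeR adjusted p = 0.037), a call lost on leaving out Old_Ctrl 1 or 3, or Old_CL 1, 2, 3 or 4 (adjusted p from 0.05 to 0.25). Young Cxcr2 was 4.08, 7.99, 6.02 and 5.06 CPM in Young_Ctrl and 2.704, 1.98, 2.82 and 6.14 CPM in Young_CL and was not called (log2 change -0.79, SE 0.38, edgeR adjusted p = 0.10) except without Young_CL 4 (adjusted p = 0.012). Neutrophil markers summed to 1.39 to 3.696 CPM in Young_Ctrl, 1.697 to 3.81 in Young_CL, 4.39 to 6.77 in Old_Ctrl and 5.12 to 6.41 in Old_CL, and their part was not tested.

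Cxcl1 and Cxcl2 are shown because both promoters hold the NF-kB motif more than once. They lie at chr5:90891015-90891244 and chr5:90903669-90903898 (RefSeq, GRCm38.p6, plus strand), each 230 bases ending 1 base before the start site, with the motif in capitals.
Cxcl1: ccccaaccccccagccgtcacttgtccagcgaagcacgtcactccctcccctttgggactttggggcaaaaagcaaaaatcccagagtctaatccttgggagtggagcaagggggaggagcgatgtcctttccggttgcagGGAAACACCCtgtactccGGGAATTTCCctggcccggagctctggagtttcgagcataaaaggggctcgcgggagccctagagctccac
Cxcl2: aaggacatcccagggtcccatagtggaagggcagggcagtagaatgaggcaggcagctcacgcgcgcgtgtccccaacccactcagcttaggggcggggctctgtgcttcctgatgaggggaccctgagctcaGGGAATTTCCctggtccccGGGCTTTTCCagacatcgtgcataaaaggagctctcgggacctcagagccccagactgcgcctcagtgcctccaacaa
The motif lay 71 and 89 bases before the start of Cxcl1 and 78 and 97 bases before that of Cxcl2.

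Genes through which chemokine receptors signal (G proteins, phosphoinositide 3-kinases, Rac and its activators, receptor kinases, arrestins and RGS proteins) were more often lower than higher after CL: 4 of 34 were higher and 22 lower after CL in the young pad and 2 of 34 were higher and 25 lower in the aged pad. Of all tested genes, 21.7% were called higher and 22.1% lower in the young pad, and 23.1% and 22.2% in the aged pad. The list's median log2 change was -0.51 in the young and -0.74 in the aged pad, against -0.068 and -0.013 for all genes. Rgs2, which shortens G protein signals, rose (log2 change 2.46 in the young and 1.33 in the aged pad, interaction -1.13; edgeR adjusted p = 6.4e-08, 7.1e-05 and 0.014). The leukocyte genes Pik3cg, Pik3cd, Dock2 and Rac2 fell in the young pad, with log2 changes of -0.83, -0.82, -0.77 and -0.73. Rgs16, Prex1, Vav1, Rac2 and Was fell in the aged pad, with log2 changes of -1.74, -1.20, -1.05, -1.004 and -0.94. With age, 3 of 34 were higher and 12 lower under vehicle and 2 of 34 were higher and 17 lower under CL, where 15.1% and 12.2% of all genes were called under vehicle and 20.5% and 19.4% under CL. Gnai1, an inhibitory G protein subunit, was higher with age in both (log2 change 0.91 and 0.96).

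Of the 11 relatives that the symbols do not cover, 8 were in the table and tested. Pf4 and Ppbp are platelet chemokines, Rarres2 (chemerin) is the adipose-derived ligand of Cmklr1, Ccrl2 binds chemerin, Dpp4 trims chemokines, and Mif acts through Cd74. After CL, 0 of 8 were higher and 2 lower in the young pad (Cd74 -0.53 and Dpp4 -0.65, log2 changes), a share near the 22.1% of all tested genes called lower. In the aged pad 1 of 8 were higher and 5 lower, against 23.1% and 22.2% of all genes: Cmklr1 rose by 0.62, and Dpp4 (-1.71), Ppbp (-1.43), Pf4 (-1.22), Cd74 (-0.77) and Mif (-0.31) fell. With age under vehicle, 4 of 8 were higher and 0 lower (all genes 15.1% and 12.2%), namely Rarres2 (0.98), Pf4 (0.97), Cmklr1 (0.65) and Ccrl2 (0.65). Under CL, 3 of 8 were higher and 2 lower (all genes 20.5% and 19.4%).

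The 15 rows under the threshold reached 0.5 CPM in no library and held 0 to 45 counts in all. They were Ccl1 (45 counts), Ccr1l1 (33), Cxcr1 (29), Ccl21b and Ccl21c (24 each), Cxcl17 (21), Ccl20 (12), Cxcl3 (10), Ccl19 and Cxcl5 (9 each), Ccl21a and Cxcl15 (6 each), Ccl26 (5), and Ccl27b and Ccl28 (0 each). The lymph node ligands Ccl19 and Ccl21, which guide cells with Ccr7, were close to 0 in the counts while Ccr7 was not. The handling of multi-mapping reads is not given, so whether these low counts reflect low RNA was not established. Ccl21b and Ccl21c had the same count in every library and come from near-identical gene copies, so their values are uncertain. Just above the threshold were Cxcl2, Cxcl11, Ccr3 and Ccl3, which reached 0.5 CPM in 4, 6, 7 and 8 libraries.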

How the data were processed

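Per the labels, polyA RNA was extracted with Trizol and PureLink and made into TruSeq libraries. Per the submitters' processing notes, STAR, featureCounts and Subread were used with the mm9 build; versions, strand setting and the handling of multi-mapping reads are not given in the sources used here. The values are the authors' deposited gene counts, 1 integer table of 24015 rows and 15 libraries, with 6115542 to 51577001 counts each. No reads were realigned.

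Genes were kept with filterByExpr by group of edgeR 4.0.16 (15288 genes), scaled by TMM and tested with the quasi-likelihood F test (robust, 1 mean per group, R 4.3.3), with Benjamini-Hochberg adjustment and a threshold of 0.05. Comparisons were of treatments within an age, of ages within a treatment, and their interaction (5 in all). SEs were taken as |log2 change| divided by √F. CPM uses the scaled library size; the rule for members used unscaled CPM. Marker sums leave out chemokine genes. The scripts were tested on simulated data.

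The members and gene lists were chosen with earlier results of these data known. Library values and full statistics were given for members called in at least 1 comparison at a mean of at least 1 CPM, and other members where their axis turned on them. At most 6 genes of each further list with the smallest adjusted p were named per comparison. Individual values of 1 member are not reported here, though it stays in all tallies over the 47 genes.

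Alternatives were RLE and upper-quartile factors, DESeq2 1.42.0, 2 other filters, the replicate number as a block, marker score covariates, libraries left out and Old_CL 1, 2 and 4 summed. Promoters and start sites are those of RefSeq on GRCm38.p6, found for 35 of the 47 members; that build differs from the counts' build, and nothing was converted between them.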

Additional observations from a re-analysis of the deposited data

Results flagged for a closer look

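In groups of 4 libraries, 105 groups of 35 members were searched for a library far from the others, and 13 were found; chance alone flags about 1 in 20 groups. Young_CL 4 stood apart for 5 members: Ackr3 at 12.0 CPM (others 53.4 to 60.2), Ccl11 at 17.8 (35.1 to 37.2), Ccr10 at 7.03 (4.49 to 4.83), Ackr4 at 26.3 (17.4 to 17.9) and Xcr1 at 6.87 (4.61 to 4.99). In the same library the macrophage, fibroblast and lymphatic endothelium marker sums were the lowest of its group, the last through Lyve1 and Pdpn and not Prox1 or Flt4. Old_CL 3 stood apart for 5 members: Ccl9 at 220 CPM (others 89.9 to 110), Ccl6 at 293 (132 to 154), Cxcl13 at 74.3 (53.9 to 56.4), Ccr6 at 6.05 (8.52 to 8.84) and Cxcl12 at 171 (211 to 216). Old_CL 3 was the library of its group richest in muscle transcripts. Its macrophage marker sum was also the highest of the group (1450.2 CPM, others 979 to 1080). Its T cell sum (179.7 CPM, others 288 to 300) and B cell sum (449.8 CPM, others 544 to 595) were the lowest. The part of these cell types was not tested. Old_CL 2 stood apart for Cxcr2 at 2.88 CPM (2.28 to 2.34) and for Cxcr6 at 6.77 (7.23 to 7.29), and Young_CL 3 for Cx3cr1 at 6.79 (4.87 to 5.20).

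The response to CL differed between the ages by the interaction test of edgeR for 4 members, with log2 differences (aged response minus young response) of -3.10 for Ccl8, -2.34 for Ccr8, -1.10 for Ccl22 and -0.96 for Ccr7. In each case the log2 change was lower in the aged pad.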

How the results depend on the processing

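The 91 member calls were refitted 1801 times: 1396 refits kept the call, 380 lost it and 25 changed its sign. All 25 sign changes and 165 of the losses came with a marker score as covariate, and 30 calls were kept in every refit without a score covariate. RLE and upper-quartile factors, DESeq2, the filter settings and the skeletal muscle score left the counts of calls within 1.5 times. Leaving out 1 library at a time gave 1 to 3 members higher and 12 to 19 lower for CL in the young pad, and 4 to 5 and 23 to 27 in the aged pad. By age it gave 1 to 8 and 2 to 8 with vehicle and 4 to 5 and 13 to 17 with CL, and for the interaction 0 to 1 and 3 to 11. The shares of all genes for young CL were 18.4% to 24.5% higher and 16.9% to 25.1% lower. For aged CL they were 18.6% to 21.2% and 17.5% to 19.5%. By age they were 7.04% to 21.8% and 4.24% to 16.4% with vehicle, and 16.6% to 20.2% and 15.3% to 19.3% with CL. For the interaction they were 1.43% to 5.91% and 1.36% to 7.57%. Of 21 same-numbered pairs 6 correlated above 0.1 and 4 libraries correlated best with their own number. These correlations gave no clear sign of pairing but cannot exclude it, as the libraries also differed in muscle transcripts. The main fit left the samples unpaired. With the replicate number as a block, age under vehicle had 2 members higher instead of 8 (all genes 13.4% instead of 15.1%).

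A covariate of B cell and lymph node markers left, higher and lower, 0 and 0 members for CL in the young, 3 and 17 for CL in the aged, 0 and 0 by age with vehicle, 1 and 3 by age with CL, and 2 higher interactions. In the same order the shares of all genes were 6.59% and 2.05%, 12.2% and 13%, 0.137% and 0.072%, 7.19% and 7.95%, and 4.01%. A T cell covariate left 1 and 0, 0 and 0, 2 and 0, and 1 and 0 for the first 4. The shares of all genes there were 5.06% and 2.17%, 1.65% and 0.641%, 0.942% and 0.641%, and 4.31% and 6.35%. The macrophage covariate left 18 lower for CL in the aged (all genes 9.59%), and 0 and 0 by age with vehicle (1.98% and 0.576%). Without the 5 muscle-rich libraries, 3 were higher with CL in the aged (all genes 16.1%). That setting left Young_CL 4 alone in its group. There the median log2 change of the members was -0.62 with CL in the young, -0.24 by age with CL and -0.11 for the interaction. The medians of all genes were -0.097, -0.013 and 0.039. With Old_CL 1, 2 and 4 summed, 3 were higher with CL in the aged, 4 by age with vehicle, 3 by age with CL, and 0 interactions were lower. The shares of all genes were 16.4%, 11.8%, 13.2% and 0.415%. Why these counts moved was not tested.

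Log2 changes that changed sign, of members called in the report or only in the refit, were as follows. With the B cell covariate they were, for young CL, Ccr6 0.11, Cxcr5 0.12, Ccr9 0.31 and Xcr1 0.027; for age, Cxcr5 0.067 under vehicle and Ccr6 0.37 under CL. With the T cell score they were, for young CL, Cxcr4 1.38, Cxcl16 0.060, Ccl5 0.61, Ccr7 0.37, Ccl22 0.23, Ccr9 0.70 and Xcr1 0.10. For aged CL they were Cxcr4 1.04, Cxcl14 -0.42, Ccr9 0.68 and Xcr1 0.20. For age under vehicle they were Ccr7 0.64 and Ackr4 -0.14, and under CL Cxcr4 0.71, Cxcl16 0.28, Ccl5 0.54, Ccr6 0.24, Cxcl2 -0.27 and Ackr4 -0.052. With the macrophage score, age under vehicle gave Ccl6 -0.18 and Ccl3 -0.14. Without the muscle-rich libraries, which leaves Young_CL 4 as the only Young_CL library (assumed to vary like the other groups), young CL gave Ccl9 -1.93 and Ccl6 -2.29. That setting gave Ackr3 1.52, Ccl24 2.77 and Ccr1 2.28 for age under CL, and Ccl24 2.53 and Ackr2 2.14 for the interaction. The T cell and macrophage scores were added after seeing the data. In the 3 shallowest libraries, totals of 6115542 to 7066687 counts put 3 counts at 0.425 to 0.491 CPM, which limits Ccl3, Cxcl1, Cxcl2, Cxcl11 and Ccr3.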
